A study of Homo sapiens with 6 samples.

Results

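The kinesin motors and the cytokinesis genes measured here are those whose single gene symbol names a kinesin of the KIF or KIFC series, or is PRC1, ANLN, ECT2 or RACGAP1. On the array they were covered by 114 of 49395 probe sets, which stand for 45 of 18132 genes. By textbook roles, 13 of the 45 are motors of the mitotic spindle and cell division, 15 are motors of organelle and vesicle transport, 13 are other kinesins, and 4 are non-motor regulators of cytokinesis. KIF4B, a fourteenth mitotic motor gene, shares its only probe set with KIF4A and has no value of its own.

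Kinesins use ATP to move along microtubules or to shorten them. Mitotic kinesins push spindle poles apart, carry and align chromosomes and build the central spindle, on which PRC1, RACGAP1, ECT2 and ANLN set up and anchor the cleavage furrow. Transport kinesins carry vesicles, mitochondria and ciliary proteins along microtubules in cells whether or not they divide. Many mitotic motors are made mainly in G2 and M phase, so their RNA is plentiful in cycling cultures such as colorectal cancer lines.

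The cells were HCT116, a human colorectal cancer line. Those of 1 group (sh-PNO1, n = 3) had received lentivirus with a short hairpin RNA against PNO1, an assembly factor of the small ribosomal subunit, and those of the other (sh-Ctrl, n = 3) lentivirus with a control hairpin; RNA was collected after 72 h in both. Each sample was hybridised to 1 Affymetrix array. The labels name 1 hairpin against PNO1, so loss of PNO1 and other effects of that hairpin cannot be told apart, and they do not say whether replicates were separate cultures, so p-values rest on array-to-array spread that may be technical only. Values are probe set intensities on a linear scale, normalised between arrays by the authors; a change is therefore a shift against the rest of that array. A gene is given by its brightest probe set with 1 symbol. A gene is said to have risen or fallen where limma's test over all 49293 probe sets gave a Benjamini-Hochberg adjusted p under 0.05, and fold changes are log2 values, sh-PNO1 minus sh-Ctrl. By this rule 13.2% of all genes fell and 18.4% rose.

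PNO1 itself read 105, 108 and 105 in sh-PNO1, against 535, 535 and 532 in sh-Ctrl on its brightest probe set. All 3 of its probe sets were lower on every sh-PNO1 array, and 3 arrays against 3 cannot go under p = 0.1 in the exact permutation test (two-sided), the value found (log2 fold change -2.33 ± 0.04 SE, limma adjusted p = 3.32e-07). Array medians lay between 25.6 and 25.9. The 3' over 5' log2 difference of ACTB, a sign of RNA quality, was 2.25 on sh-PNO1 replicate 2, against 1.73 and 1.79 on the other sh-PNO1 arrays and 1.82 to 1.87 in sh-Ctrl. For GAPDH the same difference was -0.08 to -0.06 in sh-PNO1 and -0.03 to -0.01 in sh-Ctrl, and the part of these differences in the results was not tested. The 7 colorectal epithelial markers summed to intensities of 9452 to 9809 in sh-PNO1 and 8697 to 9106 in sh-Ctrl, with EPCAM, KRT8, KRT18 and KRT19 all bright, KRT19 and CDH1 higher in sh-PNO1 by 0.37 and 0.31 (adjusted p = 0.00056 and 0.00222), and VIL1, at 3.99 to 4.63 in sh-PNO1 and 4.63 to 5.29 in sh-Ctrl, very dim. CDX1 read 21.4 to 24.6 in sh-PNO1 and 23.0 to 23.1 in sh-Ctrl, under the array medians. The 6 markers of blood, fibroblast and endothelial cells summed to 104 to 108 in sh-PNO1 and 97.2 to 99.3 in sh-Ctrl. Among them VWF read 35.8 to 39.7 in sh-PNO1 and 34.0 to 37.2 in sh-Ctrl, above CDX1.

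Most mitotic kinesins fell. Of the 15 transport kinesins 9 rose with all arrays under the deposited scaling, as did 3337 of all 18132 genes. With any 1 array left out 5 to 7 of them rose, as did 2642 to 2926 of all genes. With arrays set to equal housekeeping means 4 of 15 rose and 2 fell, while 1722 of all genes rose and 6378 fell. Of the 45 genes 28 passed, against 31.6% of all genes, and on 32 of them the arrays of the groups did not overlap, against 44.7%. Of 13 mitotic kinesins 10 fell and 0 rose, against 13.2% and 18.4% of all genes, with a median log2 fold change of -0.35. Of 15 transport kinesins 9 rose and 2 fell, with a median of 0.16. All 4 cytokinesis regulators fell, with a median of -0.35, whereas among the 13 other kinesins 1 fell and 2 rose, with a median of 0.01. The median over all genes was 0.03. These classes were drawn up with earlier results of these data known, so the counts describe the members and were not tested as sets.

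**Figure D1:**
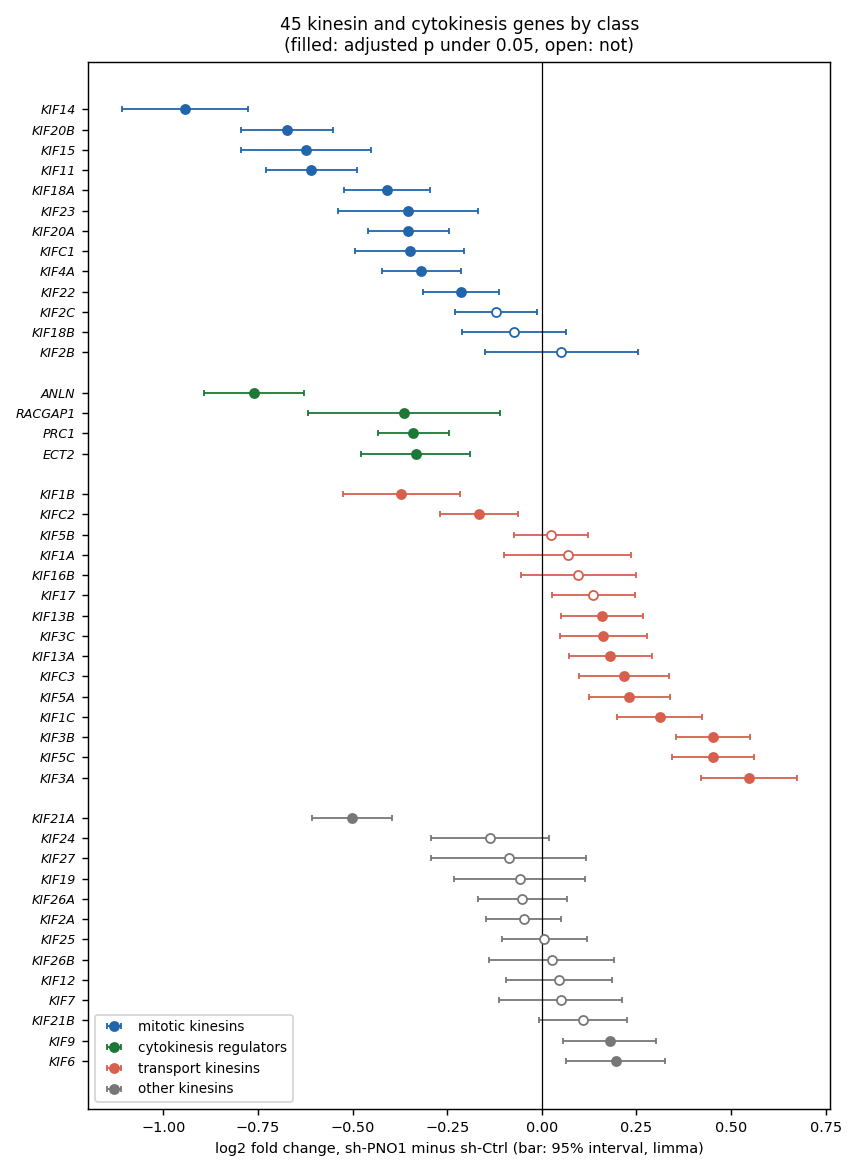
The plot gives the log2 fold change (sh-PNO1 minus sh-Ctrl) of the brightest probe set of each of 45 genes, by class, with limma's 95% interval as a bar and filled points for an adjusted p under 0.05. Of the mitotic and cytokinesis genes 14 lie to the left of zero with filled points and 0 to the right. Of the transport kinesins 9 lie to the right with filled points and 2 (KIF1B and KIFC2) to the left.

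The fall was deepest in KIF14, a motor that works with the citron kinase at the midbody when daughter cells separate. Its brightest probe set read 97.6, 109.8 and 90.2 in sh-PNO1, against 192, 193 and 184 in sh-Ctrl. The groups were far apart, with 52.2% of the control signal left (log2 fold change -0.94 ± 0.07 SE, limma adjusted p = 5.76e-05), and its second probe set stood at -0.95. Of all genes 3.9% fell by at least 0.5 on this scale, and KIF14 was 1 of 4 mitotic kinesins that did.

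Among mitotic kinesins KIF20B, a motor of late cytokinesis, came next with 51.8, 55.9 and 52.4 in sh-PNO1, against 83.6, 89.2 and 82.6 in sh-Ctrl (log2 fold change -0.67 ± 0.05 SE, limma adjusted p = 6.11e-05). KIF11, the plus-end motor that slides antiparallel microtubules apart to make the spindle bipolar, had 269, 273 and 246 in sh-PNO1, against 397, 399.7 and 403 in sh-Ctrl (log2 fold change -0.61 ± 0.05 SE, limma adjusted p = 9.36e-05). Both KIF11 probe sets fell, and its 3 control arrays lay within a few units of each other. KIF15, which can take over from KIF11 in holding a bipolar spindle, read 72.9, 77.3 and 64.4 in sh-PNO1, against 107, 117 and 106 in sh-Ctrl on its only probe set (log2 fold change -0.62 ± 0.07 SE, limma adjusted p = 0.00053). In each of these 3 genes every sh-PNO1 array lay below every sh-Ctrl array, as was so for 18.4% of all genes and for 11 of the 13 mitotic kinesins.

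The other mitotic kinesins that fell did so by less. KIF18A, which damps chromosome movements at the metaphase plate, read 135, 147 and 141 in sh-PNO1, against 183, 191 and 187 in sh-Ctrl (log2 fold change -0.41 ± 0.05 SE, limma adjusted p = 0.000537). KIF20A, which brings the chromosomal passenger complex to the central spindle, read 209, 219 and 207 in sh-PNO1, against 264, 269.5 and 279 in sh-Ctrl (log2 fold change -0.35 ± 0.05 SE, limma adjusted p = 0.000828). KIF4A, a chromosome motor that binds PRC1 and limits the length of the central spindle, read 124, 130.2 and 130.2 in sh-PNO1, against 161, 156 and 163 in sh-Ctrl (log2 fold change -0.32 ± 0.04 SE, limma adjusted p = 0.00123). Their sh-PNO1 and sh-Ctrl arrays did not overlap, and the probe set that KIF4A shares with KIF4B also fell, by 0.28 on the log2 scale.

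KIFC1, a minus-end motor that focuses spindle poles and holds extra centrosomes together, changed by -0.35 (adjusted p = 0.00404). KIF23, the motor subunit of the centralspindlin complex, changed by -0.35 on its brightest probe set and by -0.54 on the other (adjusted p = 0.0122 for the brightest), but did not pass without sh-Ctrl replicate 2 (adjusted p = 0.0517) or without sh-PNO1 replicate 1 (0.0509). KIF22, a chromosome-arm motor, changed by -0.21 (adjusted p = 0.00743) with 1 of its 3 probe sets passing. Without probe sets of the suffix _s_at or _x_at, which can match several transcripts, KIF22 stood at -0.04 (adjusted p = 0.756).

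Not every spindle motor followed. KIF2C, the microtubule depolymerase that corrects faulty chromosome attachments, read 469, 502 and 477 in sh-PNO1, against 532, 533 and 512 in sh-Ctrl. Its groups did not overlap, but the change of -0.12 did not pass (adjusted p = 0.0925, 95% interval -0.23 to -0.01), while its dimmer probe set did (-0.17). KIF18B, a motor at the tips of astral microtubules, had 64.4, 71.1 and 65.7 in sh-PNO1, against 69.2, 74.9 and 67.7 in sh-Ctrl, overlapping groups, and a change of -0.074 (95% interval -0.21 to 0.06); of its 4 probe sets, none of which passed, 2 hold identical values on every array. KIF2B was near the lower end of the scale in both groups, at 4.77 to 5.79 in sh-PNO1 and 4.68 to 5.35 in sh-Ctrl, and lay among the dimmest 30% of probe sets, as did KIF7, KIF25 and KIF27 among the other kinesins.

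**Figure D2:**
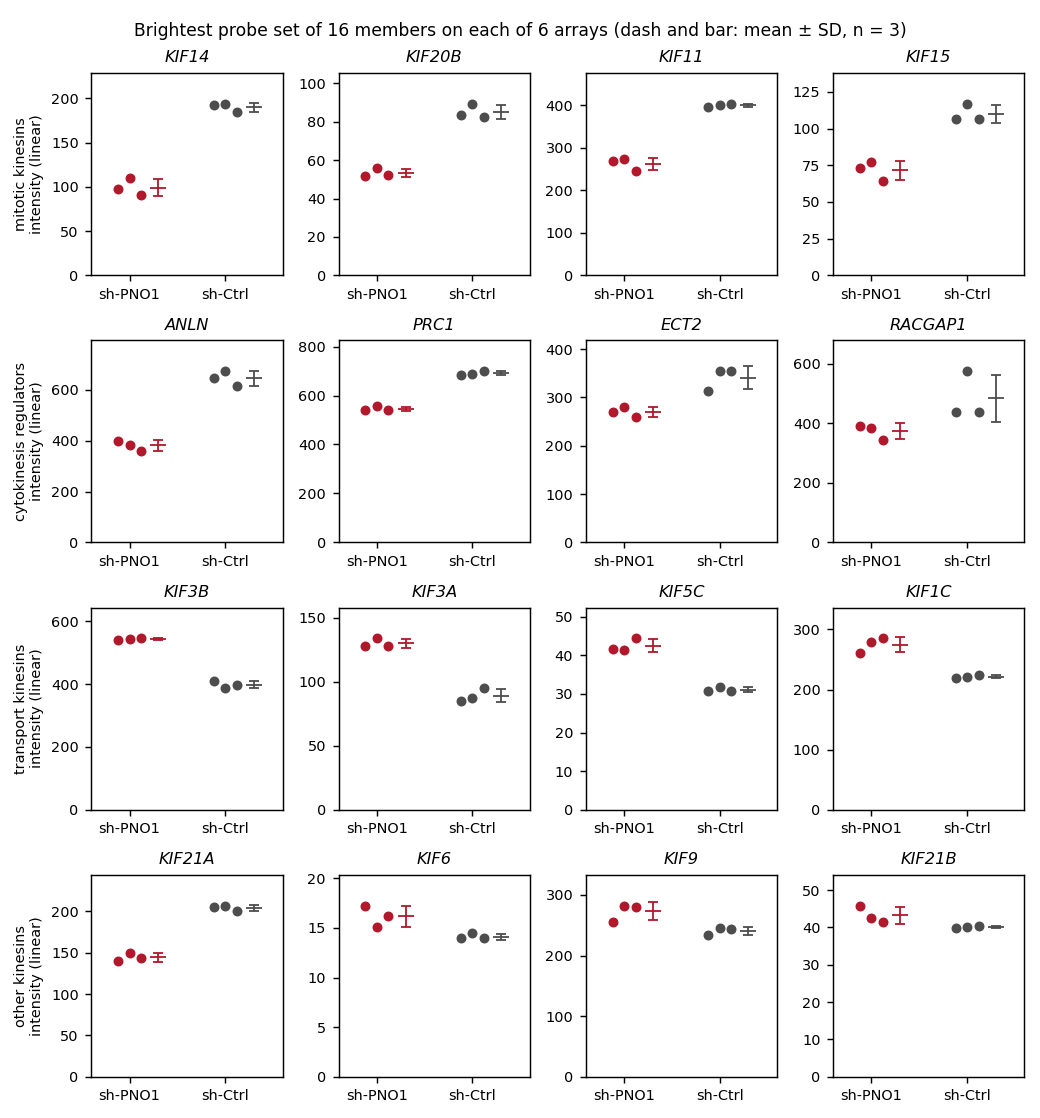
Each panel shows the linear intensity of 1 gene's brightest probe set on the 3 sh-PNO1 arrays (red) and the 3 sh-Ctrl arrays (grey), with the mean ± SD (n = 3) beside the points and the axis starting at 0. In the upper panels (KIF14, KIF20B, KIF11, KIF15, ANLN, PRC1, ECT2, RACGAP1) the sh-PNO1 points lie below the sh-Ctrl points, in the third row (KIF3B, KIF3A, KIF5C, KIF1C) above them, and in the last row below them for KIF21A and slightly above them for KIF6, KIF9 and KIF21B.

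The cytokinesis regulators moved with the mitotic motors. ANLN, anillin, which ties actin, myosin and septins together in the furrow, read 399.6, 385 and 359.9 in sh-PNO1, against 648, 674 and 615 in sh-Ctrl. All 4 of its probe sets fell, by between 0.76 and 0.89 on the log2 scale, and 59.1% of the control signal was left on the brightest (log2 fold change -0.76 ± 0.06 SE, limma adjusted p = 5.2e-05). PRC1, which bundles the antiparallel microtubules of the central spindle, read 542, 556 and 540.2 in sh-PNO1, against 684, 689 and 699 in sh-Ctrl (log2 fold change -0.34 ± 0.04 SE, limma adjusted p = 0.000547), with 3 of 4 probe sets lower.

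ECT2 activates the GTPase RhoA at the cell equator. Its brightest probe set had 269, 281 and 259.5 in sh-PNO1, against 313, 354 and 354 in sh-Ctrl (log2 fold change -0.33 ± 0.06 SE, limma adjusted p = 0.00486), and both its probe sets fell. RACGAP1, the partner of KIF23 in centralspindlin and the docking site of ECT2, read 392, 385 and 343 in sh-PNO1, against 438, 575 and 438 in sh-Ctrl. The sh-Ctrl replicate 2 array stood far above the other two controls there, and the change of -0.36 (adjusted p = 0.041) did not pass with any 1 array left out (adjusted p = 0.0532 to 0.143); the other 2 RACGAP1 probe sets fell too, at -0.52 and -0.29. In bulk RNA, fewer dividing cells and less RNA per dividing cell cannot be told apart, which touches each of these decreases.

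The start regions of these genes are shown because their members moved together and because a short element, TTTGAA, is known from the promoters of genes made late in the cell cycle, often near a CCAAT box. Sequences are from RefSeq (GRCh38.p14), which gave promoters of 250 bases before to 50 bases after the start for 36 of the 45 genes. Each line runs 5′ to 3′ on the gene's strand from 100 bases before to 50 bases after the start. Capitals mark TTTGAA and CCAAT on either strand, that is TTTGAA or TTCAAA and CCAAT or ATTGG. The genes printed are a selection, and all those printed in this paragraph hold TTTGAA. ANLN among them has no CCAAT. Not printed are, among others, KIF15, which has no CCAAT, and KIF20A and KIF22, which have no TTTGAA. The intervals are chr1:200620702-200620851 (minus strand) for KIF14, chr10:89701490-89701639 (plus) for KIF20B, chr10:92593030-92593179 (plus) for KIF11, chr11:28108107-28108256 (minus) for KIF18A, chrX:70290004-70290153 (plus) for KIF4A, chr15:90994486-90994635 (minus) for PRC1 and chr7:36389762-36389911 (plus) for ANLN.
KIF14: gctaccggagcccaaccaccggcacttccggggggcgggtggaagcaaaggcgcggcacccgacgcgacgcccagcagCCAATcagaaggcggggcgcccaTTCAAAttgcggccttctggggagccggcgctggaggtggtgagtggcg
KIF20B: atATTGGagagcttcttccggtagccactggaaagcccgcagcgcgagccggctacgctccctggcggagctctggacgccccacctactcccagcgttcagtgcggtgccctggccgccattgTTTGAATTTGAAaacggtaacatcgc
KIF11: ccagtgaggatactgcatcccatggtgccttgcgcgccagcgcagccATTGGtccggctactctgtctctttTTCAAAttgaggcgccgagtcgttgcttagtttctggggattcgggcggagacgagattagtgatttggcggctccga
KIF18A: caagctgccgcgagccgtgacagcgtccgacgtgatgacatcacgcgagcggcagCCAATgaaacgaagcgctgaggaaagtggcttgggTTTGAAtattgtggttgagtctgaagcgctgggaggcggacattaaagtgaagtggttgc
KIF4A: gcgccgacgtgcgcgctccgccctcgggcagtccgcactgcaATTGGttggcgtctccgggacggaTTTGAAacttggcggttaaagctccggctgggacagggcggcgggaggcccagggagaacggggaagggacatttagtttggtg
PRC1: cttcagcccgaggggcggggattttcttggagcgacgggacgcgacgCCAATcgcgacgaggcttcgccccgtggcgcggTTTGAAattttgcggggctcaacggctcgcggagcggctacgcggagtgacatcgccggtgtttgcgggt
ANLN: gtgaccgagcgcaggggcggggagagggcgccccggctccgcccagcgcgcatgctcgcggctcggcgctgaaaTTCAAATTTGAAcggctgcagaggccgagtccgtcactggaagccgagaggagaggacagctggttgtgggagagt
Over the full 300 bases, TTTGAA occurred in 9 of 13 mitotic kinesins (69.2%) and in 3 of the 3 cytokinesis regulators found (PRC1, ANLN and ECT2), against 15.9% of all genes on the array with a promoter in the table. CCAAT occurred in 10 of 13 mitotic kinesins (76.9%) and in 2 of the 3 cytokinesis regulators (PRC1 and ECT2), against 42.4% of those genes. Both elements together occurred in 8 of 13 mitotic kinesins (61.5%) and in the same 2 regulators, against 6.67%. The element lay between 55 bases before and 31 bases after the start in all 9 mitotic genes; KIF20B carries it 2 times in a row, and in ANLN a TTCAAA runs straight into a TTTGAA. Presence and response did not match gene by gene: KIF18B has the element and did not pass, while KIF20A and KIF22 have a CCAAT but no TTTGAA in the window and fell. A gene with several start regions was counted once if any of them held the motif. A match in letters is a description and shows neither binding nor a cause.

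KIF3A and KIF3B, the motor subunits of heterotrimeric kinesin-2, carry cargo into cilia and along the cytoplasm. KIF3A read 128, 134 and 128 in sh-PNO1, against 84.7, 87.6 and 95 in sh-Ctrl, and all 3 of its probe sets rose (log2 fold change 0.55 ± 0.05 SE, limma adjusted p = 0.000215). It was the 1 member that rose by at least 0.5, as 2.98% of all genes did. In 10 of 15 transport kinesins every sh-PNO1 array lay above every sh-Ctrl array, as in 26.3% of all genes. KIF3B had 541, 544 and 546 in sh-PNO1, against 409, 388 and 396 in sh-Ctrl, with no overlap and almost no spread between the sh-PNO1 arrays (log2 fold change 0.45 ± 0.04 SE, limma adjusted p = 0.000155). Its second brightest probe set also rose (0.50), while the 2 dimmest stood at 0.06 and -0.04. KIFAP3, the non-motor subunit of the same complex, rose by 0.48 (adjusted p = 0.000365) on the brighter of 2 probe sets that both passed. KIF3C, the alternative partner of KIF3A, rose by only 0.16 (adjusted p = 0.044) and did not pass with any 1 array left out (adjusted p = 0.0622 to 0.123).

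KIF1C, a fast carrier of dense-core vesicles and integrins, had 260.1, 279 and 285 in sh-PNO1, against 219, 220.1 and 224 in sh-Ctrl on its only probe set (log2 fold change 0.31 ± 0.05 SE, limma adjusted p = 0.00214), and the groups did not overlap. The start regions of KIF3A (chr5:132737497-132737646, minus strand) and KIF1C (chr17:4997850-4997999, plus), cut as above, are shown beside those of the mitotic genes and hold neither element:
KIF3A: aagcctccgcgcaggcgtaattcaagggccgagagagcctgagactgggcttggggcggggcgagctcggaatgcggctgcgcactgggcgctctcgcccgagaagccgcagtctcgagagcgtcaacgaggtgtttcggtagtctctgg
KIF1C: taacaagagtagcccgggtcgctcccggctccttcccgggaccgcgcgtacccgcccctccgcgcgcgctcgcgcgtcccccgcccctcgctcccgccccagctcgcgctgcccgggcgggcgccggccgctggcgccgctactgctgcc
In the 300-base windows TTTGAA occurred in 1 of 11 transport kinesins found (9.09%, KIF5B) and in 0 of 9 other kinesins, and CCAAT in 4 of 11 and 3 of 9. KIF3B and KIF5C, which also rose and are not printed, are among the transport kinesins with a CCAAT, so KIF3A and KIF1C do not stand for all that rose.

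Kinesin-1, the conventional cargo motor, has 3 heavy chains. KIF5B, the ubiquitous one and the only member with an intensity above all 23 background probe sets of the array, read 1296, 1271 and 1238 in sh-PNO1, against 1238, 1238 and 1267 in sh-Ctrl. These values overlapped, and the change of 0.023 had a 95% interval of -0.07 to 0.12, with 1 of 4 probe sets higher (0.23). KIF5C, known best as a neuronal heavy chain, read 41.8, 41.4 and 44.4 in sh-PNO1, against 30.8, 31.9 and 30.6 in sh-Ctrl (log2 fold change 0.45 ± 0.05 SE, limma adjusted p = 0.000263), but only 1 of its 4 probe sets rose, and without suffix _s_at and _x_at probe sets it stood at -0.048 (adjusted p = 0.691). KIF5A, the other neuronal form, changed by 0.23 (adjusted p = 0.00691) on 1 of 4 probe sets and did not pass with its probe sets averaged (0.05, adjusted p = 0.286).

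The remaining increases were small. KIFC3, a minus-end motor of epithelial junctions and Golgi positioning, changed by 0.22 (adjusted p = 0.0151), and all 6 of its probe sets were above zero, 3 of them past the threshold; it did not pass without sh-Ctrl replicate 2, sh-PNO1 replicate 2 or sh-PNO1 replicate 3 (adjusted p = 0.0533 to 0.0581). KIF13A, an endosome motor, changed by 0.18 (adjusted p = 0.0239) and KIF13B, which carries phosphoinositide-binding and polarity proteins, by 0.16 (adjusted p = 0.0379). KIF13A lost the call without sh-Ctrl replicate 1, sh-PNO1 replicate 1 or sh-PNO1 replicate 3 (adjusted p up to 0.0760) and KIF13B in each fit that dropped 1 array other than sh-PNO1 replicate 2 (highest adjusted p = 0.114). KIF17 (0.14), KIF16B (0.10) and KIF1A (0.07) did not pass on their brightest probe sets, though 1 of 5 KIF1A probe sets rose (0.26). In all, 4 of the 11 transport kinesins that passed kept their call under every alternative setting tried. KIF1C, KIF3A and KIF3B did so as increases and KIF1B as a decrease. Of the 10 mitotic kinesins that passed 8 kept their call. KIF15, 1 of these, had no value without suffix _s_at and _x_at probe sets and kept its call in the other settings.

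KIF1B and KIFC2 went the other way. KIF1B, whose forms carry mitochondria and synaptic vesicle precursors, read 95.3, 114 and 107 in sh-PNO1, against 139, 134 and 136 in sh-Ctrl (log2 fold change -0.37 ± 0.07 SE, limma adjusted p = 0.00406). Its 6 probe sets did not move alike: 2 fell (-0.37 and -0.39) and the other 4 lay between -0.10 and 0.03. KIFC2, a minus-end motor described mainly in neurons, changed by -0.17 (adjusted p = 0.0266) and did not pass in each fit that dropped 1 array other than sh-PNO1 replicate 3 (highest adjusted p = 0.0760).

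Among the 13 other kinesins KIF21A was the one gene that fell. KIF21A, a kinesin that restrains microtubule growth at the cell cortex, read 140.0, 149.9 and 143 in sh-PNO1, against 205, 207 and 200.02 in sh-Ctrl, with 4 of 4 probe sets lower by 0.40 to 0.50 on the log2 scale (log2 fold change -0.50 ± 0.05 SE, limma adjusted p = 0.000136). Its paralogue KIF21B had 45.9, 42.4 and 41.3 in sh-PNO1, against 39.9, 40.0 and 40.3 in sh-Ctrl on its brightest probe set, a change of 0.11 that did not pass (adjusted p = 0.159), while its dimmer probe set fell (-0.29, adjusted p = 0.00609), so its 2 probe sets pointed opposite ways. KIF9, a motor of cilia and flagella, had 256, 283 and 280.2 in sh-PNO1, against 234, 245 and 244 in sh-Ctrl (log2 fold change 0.18 ± 0.05 SE, limma adjusted p = 0.0393), with 1 of 3 probe sets higher. The dim KIF6 read 17.3, 15.1 and 16.2 in sh-PNO1, against 13.96, 14.5 and 13.96 in sh-Ctrl (log2 fold change 0.19 ± 0.06 SE, limma adjusted p = 0.0354), with 1 of 4 higher. Neither KIF9 nor KIF6 passed with most single arrays left out (5 of 6 arrays in each), nor with probe sets averaged.

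KIF2A, a depolymerase used in spindles and in neurons, changed by -0.048 on its brightest probe set (95% interval -0.15 to 0.05) and by -0.36 on its dimmest, which passed. The brightest probe sets of KIF12, KIF19, KIF24, KIF26A, KIF26B and of the dim KIF7, KIF25 and KIF27 did not pass, with changes of -0.14 to 0.05.

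Counted by probe set, 54 of 114 passed, against 28% of all probe sets. Among them 15 of 23 for mitotic kinesins and 12 of 13 for cytokinesis regulators fell and 0 rose, against 13.2% of all probe sets that fell and 14.8% that rose. The 23 include both KIF18B probe sets with identical values, neither of which passed. Of 48 probe sets of transport kinesins 16 rose and 3 fell. Of the 21 members with several probe sets whose brightest passed, 9 had all their probe sets past the threshold on 1 side: KIF4A, KIF11, KIF14, KIF23, ANLN, ECT2, RACGAP1, KIF21A and KIF3A. The class medians can be read array by array, where centring on sh-Ctrl keeps those arrays near zero by construction. Relative to the sh-Ctrl mean of each gene, the median mitotic kinesin stood at -0.37, -0.30 and -0.41 on the sh-PNO1 arrays and between -0.04 and 0.03 on the sh-Ctrl arrays, and the median transport kinesin at 0.20, 0.13 and 0.17 on the sh-PNO1 arrays and between -0.02 and 0.02 on the sh-Ctrl arrays.

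The number of transport kinesins that rose depended on the scaling and on the arrays used. Their median log2 fold change stayed between 0.15 and 0.18 with any 1 array left out. It was 0.030 with equal housekeeping means. The mean of 10 housekeeping genes stood 0.13 higher in sh-PNO1 on the log2 scale. Of these genes 4 (EMC7, GPI, RAB7A and VPS29) rose and 0 fell under the deposited scaling, with changes of -0.02 to 0.39 over the 10. The 10 genes thus did not move alike, and their calls rest on the deposited scaling, so they cannot tell which scaling is right. When arrays were set to equal means of these genes, every fold change dropped by 0.13. Then 4 transport kinesins rose (KIF1C, KIF3A, KIF3B and KIF5C) and 2 fell, 12 mitotic kinesins fell, and over all genes 1722 rose and 6378 fell in place of 3337 and 2401. Without sh-PNO1 replicate 2, the array with the high ACTB ratio, 10 mitotic kinesins fell and 7 transport kinesins rose, while 2137 of all genes fell and 2859 rose. Without sh-PNO1 replicate 3 the number of transport kinesins that rose was 5, and 2782 of all genes rose. The 3 other kinesins that passed were down to 1, KIF21A, with any 1 sh-Ctrl array left out or without sh-PNO1 replicate 3, and under equal housekeeping means 4 other kinesins fell and 0 rose.

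Partners of these motors were counted in the same way, from lists drawn up alongside the classes. Of 21 spindle and furrow partners measured, 10 fell and 3 rose, against 13.2% and 18.4% of all genes, with a median of -0.16. CENPE, the kinetochore kinesin that the KIF symbols do not cover, fell by 0.68 on the log2 scale (mean intensity 119 in sh-PNO1 and 189.9 in sh-Ctrl, adjusted p = 5.82e-05). SHCBP1, a centralspindlin-binding protein of the midbody, fell by 0.95 (adjusted p = 4.81e-05), CDCA8, of the chromosomal passenger complex, by 0.65 (adjusted p = 3.68e-05), and HMMR, a spindle-pole protein, by 0.60 (adjusted p = 4.99e-05). SEPTIN2, a filament protein of the furrow, rose by 0.67 (adjusted p = 2.95e-05) with 4 of 4 probe sets higher. AURKB fell by only 0.15 (adjusted p = 0.0383), and PLK1 (-0.20, adjusted p = 0.0561), INCENP (-0.036) and BIRC5 (-0.0026) did not pass on their brightest probe sets. The 12 BIRC5 probe sets ranged from -0.98 to 0.040, and 2 of them fell.

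Of 15 kinesin light chains and cargo adaptors 8 rose and 1, KIFBP, fell, against 18.4% and 13.2% of all genes, with a median of 0.19. Besides KIFAP3, KLC3, a light chain, rose by 0.50 (adjusted p = 0.00159), TRAK1, the mitochondrial adaptor, by 0.41 (adjusted p = 0.00158) with 3 of 6 probe sets higher, and SPAG9, a JNK scaffold that binds light chains, by 0.33 (adjusted p = 0.00259) with 2 of 9. SPAG9 did not pass with its probe sets averaged (0.04, adjusted p = 0.428). Cytoplasmic dynein and dynactin, the minus-end motor and its activator, had 8 of 19 genes higher and 1 lower, against the same shares of all genes, with a median of 0.12. DYNLL2 rose by 0.50 (adjusted p = 0.00011) with 1 of 2 probe sets higher. DYNC1LI2 rose by 0.37 (adjusted p = 0.000523) with 4 of 6, and DCTN4 by 0.21 (adjusted p = 0.00572) with 1 of 6. DYNLT3, a dynein light chain, fell by 0.60 (adjusted p = 6.24e-05). DYNC1LI1 did not pass on its brightest probe set (-0.13, adjusted p = 0.0609), while its other probe set fell (-0.74). DCTN4 did not pass with its probe sets averaged (0.15, adjusted p = 0.0601) or without suffix _s_at and _x_at probe sets (0.11, adjusted p = 0.362). With equal housekeeping means 4 of 15 light chains and adaptors rose and 5 fell, and 2 of 19 dynein and dynactin genes rose and 3 fell. In that fit 1722 of all 18132 genes rose and 6378 fell. The dynein count that rose was 5 with any 1 sh-Ctrl array left out, where 2642 to 2707 of all genes rose.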

How the data were processed

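Total RNA of 6 HCT116 samples (100 ng each) was labelled as biotinylated cRNA and hybridised to Affymetrix arrays, per the labels' protocols. The deposited intensity values were made with RMA, per the submitters' processing notes, with no version given; the software behind it, its background correction and a genome build were not stated there. RMA usually returns log2 values, whereas these lay on a linear scale, so log2 was taken before the tests. Sample titles gave groups and replicate numbers.

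GEO's platform table named the probe sets: 44988 had 1 symbol, 1832 several, 2473 none and 102 were controls, left out of the tests. The 44961 single-symbol entries found in RefSeq (GRCh38.p14) by gene identifier kept their symbols. limma 3.58.1 (R 4.3.3) was fitted with lmFit and eBayes over all 49293 probe sets, without covariates, and p-values were adjusted over all of them. The test was checked on simulated data. Members and lists were chosen with earlier results of these data known. Array values are given for members that passed with a log2 change of at least 0.5 and the 4 smallest adjusted p-values of each class, and for some others chosen after their values were seen; in each list of partners the 4 smallest adjusted p-values are named, and other partners were likewise chosen after their values were seen. Also tried were a replicate block, a trended robust prior, array weights, repeated quantile normalisation, equal medians, equal housekeeping means, log2(intensity + 16), the dimmest 30% left out, other choices of probe set per gene, suffix _s_at and _x_at left out, an adjusted p under 0.01, other class borders (KIF2A as mitotic, KIF21A and KIF21B as transport), and each array left out. The 23 background probe sets ranged from 2.52 to 804 in mean intensity, so most members could not be judged against background, and changes of dim genes may be compressed. The number of arrays limits the precision.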

Additional observations from a re-analysis of the deposited data

How the results depend on the processing

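Counts are of members that passed in the stated direction. Mitotic kinesins that fell numbered 9 to 10 with 1 array left out, and their median lay between -0.38 and -0.33; the cytokinesis regulators numbered 3 in each such fit, with a median of -0.41 to -0.32. Transport kinesins that rose numbered 5 to 7, with a median of 0.15 to 0.18, other kinesins that passed 1 to 2, with a median of -0.02 to 0.02, light chains and adaptors that rose 7 to 8, dynein and dynactin genes that rose 5 to 7, and division partners that fell 9 to 10. Of all 45 members 20 to 23 passed, and 43 to 52 of 114 probe sets. Over all 18132 genes 1957 to 2137 fell and 2642 to 2926 rose in these fits. The count was 1 for other kinesins with any 1 sh-Ctrl array or sh-PNO1 replicate 3 left out, and 5 for dynein and dynactin with any 1 sh-Ctrl array left out. With equal housekeeping means the medians were -0.49 (mitotic), -0.48 (cytokinesis), 0.030 (transport) and -0.13 (other). In that fit 4 transport kinesins rose and 2 fell, and 4 light chains and adaptors rose and 5 fell. Of the dynein and dynactin genes 2 rose and 3 fell, and over all genes 1722 rose and 6378 fell. At an adjusted p under 0.01, 5 transport kinesins and 4 dynein and dynactin genes rose and 1 other kinesin passed, while 2123 of all genes rose and 1679 fell. With probe sets averaged 5 light chains and adaptors rose, as did 3407 of all genes. The cytokinesis median was -0.54 with the most variable probe set and -0.46 without suffix _s_at and _x_at. KIF21B stood at -0.024 with equal housekeeping means, -0.29 with the most variable probe set and -0.092 with probe sets averaged, and KIF5C at -0.048 without suffix _s_at and _x_at. The causes of these shifts were not tested. Over 29 member genes and their alternative fits, 472 of 550 results stayed on their side of the threshold and in their direction, 74 lost the call and 4 turned.

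Replicate numbers are shared by the titles, but deviations from the group means correlated at -0.04, 0.10 and -0.03 for the same-numbered arrays, so the numbers were not taken to pair the samples. With the replicate block 10 mitotic kinesins and 4 cytokinesis regulators fell, 6 transport kinesins rose, and 23 members passed in place of 28. Over all genes 2244 fell and 3083 rose in that fit.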
